A study of Sus scrofa with 48 samples.

Results

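GPNMB, LYZ, LGALS3, SPP1, MSR1, MRC1, AIF1, CSF1R, TYROBP and CHIT1 are genes known from macrophages, and their levels were followed in longissimus muscle of 48 growing pigs. The probes of these 10 genes were found by name on a porcine oligonucleotide microarray, as spots named for the gene or with the gene symbol in round brackets in the probe description. Of 43 such probes among the 60305 distinct probes of the array, 39 were kept because the scanner software called them well above background on 12 or more arrays, and each of the 10 genes had at least 1 of them. The genes were named with earlier results of these data known and the probes were selected on their detection calls in these arrays, so the line differences below describe these genes and are no independent evidence that macrophage genes as a class differed.

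The pigs were barrows of 2 purebred Large White lines, bred in opposite directions for residual feed intake (RFI), the part of feed intake that growth and body reserves do not account for. Low RFI pigs (labelled RFIneg) eat less than predicted and high RFI pigs (labelled RFIpl) eat more. All were fed ad libitum, on a diet high in fat and fiber (HF) or on a diet low in both (LF), which gave 4 groups of 12 pigs, each pig on its own array. Each sample was whole muscle and not a sorted cell type, so fewer macrophages and less RNA of a gene per macrophage cannot be told apart in these values. A level is the log2 signal of a probe minus the mean of its array, so a difference is a log2 fold change.

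Macrophages take up debris and dying cells and digest them in lysosomes, and in skeletal muscle they lie in the connective tissue and gather where fibres are damaged or regrow. CSF1R, the receptor for the growth factors CSF1 and IL34, keeps them alive, and TYROBP passes on the signal of surface receptors such as TREM2. MSR1 and MRC1 are scavenger and mannose receptors that take up ligands, LYZ is a secreted enzyme that cuts bacterial walls, and CHIT1 is a secreted chitinase. GPNMB is a membrane glycoprotein of lysosome-rich macrophages, LGALS3 is galectin-3, a sugar-binding protein, SPP1 is osteopontin, a secreted matrix protein, and AIF1 binds calcium and actin in activated macrophages.

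The probes of a gene did not always report the same thing, so the 60 bases of 8 of them are given with the letters as the array files hold them. All 8 read through at least 1 forward frame with no internal stop codon, and the position is that of the probe start in the transcript named by the array. The GPNMB probe at 356 was at a steady level in all pigs, and the one at 693 was well above background on 7 arrays only. The pair at 1523 and 1531 overlapped in sequence, and each was well above background on 18 arrays.
GPNMB at 356: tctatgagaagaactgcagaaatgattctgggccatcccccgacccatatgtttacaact
GPNMB at 693: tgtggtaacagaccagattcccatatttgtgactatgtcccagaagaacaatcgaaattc
GPNMB at 1523: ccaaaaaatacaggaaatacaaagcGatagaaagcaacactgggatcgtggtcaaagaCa
GPNMB at 1531: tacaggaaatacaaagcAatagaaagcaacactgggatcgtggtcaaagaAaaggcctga
The capitals mark where the overlapping pair differed. Counted from the 5′ end of the probe at 1531, over 52 shared bases, the changes from that probe to the one at 1523 were A18G and A51C. For LGALS3, AIF1 and SPP1, the sequences shown belong to probes that moved with the other probes of their gene, and they have no capitals because no base in them was compared.
LGALS3 at 586: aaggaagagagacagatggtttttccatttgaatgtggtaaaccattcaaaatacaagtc
AIF1 at 401: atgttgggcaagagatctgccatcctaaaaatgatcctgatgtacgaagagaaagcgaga
SPP1 at 222: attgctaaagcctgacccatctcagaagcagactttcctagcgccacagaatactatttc
SPP1 at 949: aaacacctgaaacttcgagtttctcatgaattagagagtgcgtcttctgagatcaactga

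The arrays were even enough to compare pigs. From 59.2 to 74.2% of probes were well above background per array, the median signal of an array was 52.8 to 108 units, no spot was saturated, and the 4 groups were spread equally over 6 slides. The muscle label was checked on 12 genes of contractile fibres, all of which were measured, and their mean level was 8.23 to 8.72 log2 units above the array mean in every pig. Some probes were on the array under 2 names with the same bases. The 2 TYROBP probes O5540 and A_72_P021321 differed by an SD of 0.09 log2 units between pigs, against an SD of 0.66 and 0.67 over all pigs. The LYZ probe A_72_P737919 and a probe of the same bases under another name differed by an SD of 0.13, against 1.70 over all pigs. For SPP1 this SD was 0.48 for the probe O350, against 2.20. For CHIT1 it was 0.39, which is more than the SD of 0.33 of CHIT1 over all pigs, and the paired probes correlated at r = 0.41.

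Between the lines, 8 of the 10 genes had at least 1 probe that rose in high RFI pigs, and for LGALS3, LYZ, AIF1, TYROBP, CSF1R and MSR1 every kept probe did. In the limma fit over all 42125 tested probes, 30 of the 39 probes were higher in high RFI pigs at an adjusted p under 0.05 and none was lower, where 6.57% of all tested probes were higher and 9.85% were lower. The 30 include 2 GPNMB probes, at 1523 and 1531, that reached 12 arrays only with the arrays of high RFI pigs. Without those 2, 28 of 37 were higher. The median line difference was 1.11 over the 39 probes, also 1.11 over the 37, and -0.03 over all tested probes. The probes of a gene are repeated measures of 1 transcript, and GPNMB and LGALS3 alone gave 18 of the 39. MRC1 and CHIT1 had no probe past the threshold. All 6 slides had a higher mean in the high RFI pigs for every called probe.

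**Figure D1:**
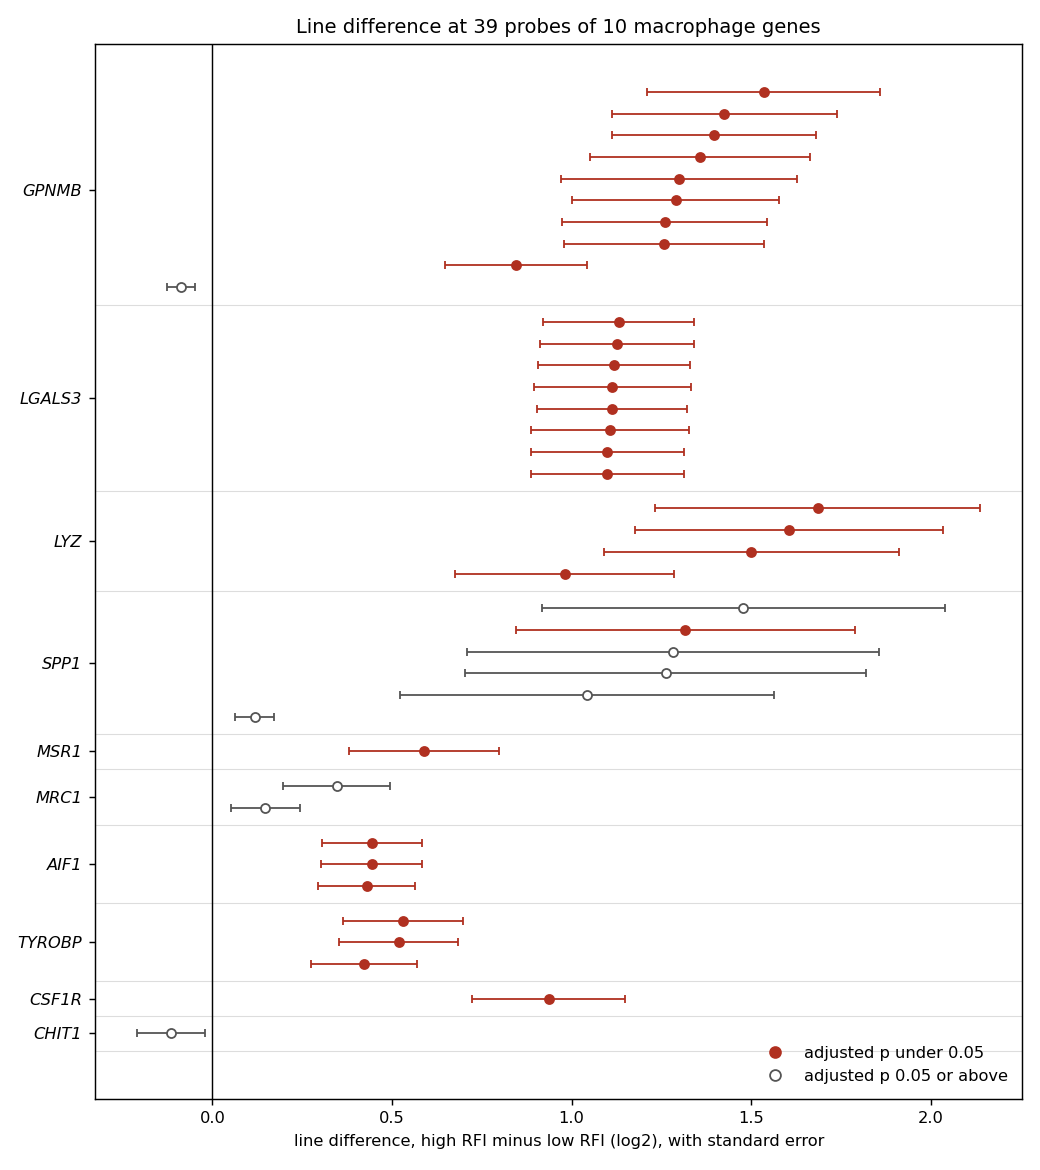
Line difference (high RFI minus low RFI, log2) of each of the 39 kept probes, with its standard error, by gene. Filled points had an adjusted p under 0.05 (30 probes), open points did not (9 probes). GPNMB, LGALS3 and LYZ lie near or above 1, AIF1 and TYROBP near 0.5, and 1 GPNMB and 1 SPP1 probe lie near 0.

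LGALS3 rose at all 8 of its kept probes. At its brightest probe (A_72_P581447), levels in low RFI pigs ran from -0.18 to 1.73 with a median of 0.70, and in high RFI pigs from 0.35 to 4.07 with a median of 1.67. The lines overlapped, but 11 of the 24 high RFI pigs lay above the highest low RFI pig. The difference was 1.11 ± 0.21 (SE), 2.16-fold, with an adjusted p of 0.00024 in limma. The other 7 kept probes gave differences of 1.10 to 1.13, and probes of LGALS3 correlated with each other at 0.98 or more. The ninth probe named for LGALS3 (A_72_P072171) was well above background on 1 array and was not kept, and the transcript it cites belongs to LGALS2 in the RefSeq gene table. The study chose a probe named LGALS3 (A_72_P060066) for predicting feed efficiency on pigs that included these, so that choice is not independent evidence of the direction of LGALS3. The array files name that probe for an EST cluster instead, it is not among the 39, and its line difference was 0.73 ± 0.14 with an adjusted p of 0.00021.

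GPNMB rose at 9 of its 10 kept probes. The pair at 1523 and 1531 is among these 9 but reached 12 arrays only with the arrays of high RFI pigs. Without that pair, 7 GPNMB probes rose. At the brightest of these 9 (A_72_P554296), low RFI pigs ranged from -1.20 to 0.35 with a median of -0.64, and high RFI pigs from -1.02 to 2.51 with a median of -0.03. The lower ends overlapped, with 2 low RFI pigs below every high RFI pig, and 9 high RFI pigs exceeded every low RFI pig. The line difference there was 0.85 ± 0.20 (adjusted p = 0.0025), and at the 9 probes it ran from 0.85 to 1.53, or 1.80- to 2.90-fold. The exception was the probe at 356, which was well above background on all 48 arrays with an SD of 0.14 over pigs, differed by -0.09 ± 0.04 (adjusted p = 0.12), and correlated with the other GPNMB probes between -0.04 and 0.16.

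Detection, by which the probes were kept, is given as a description. The GPNMB probes at 356, 2511 and, for both probes there, 2540 were well above background on all 48 arrays. The probe at 693 was well above background on 7 high RFI and 0 low RFI arrays and did not reach the minimum of 12 arrays. The pair just inside it, at 1523 and 1531, was so on 13 and 14 high RFI arrays and on 5 and 4 low RFI arrays. Neither would have reached 12 on low RFI arrays, so a difference was built into their being kept, and their line differences of 1.40 and 1.30 support nothing. The probe O11956, named through a human GPNMB transcript, was detected on 1 array. The size of the difference at the dim GPNMB probes depended on the background correction. With normexp in place of the scanner's own correction it was 0.28 and 0.31 at 1523 and 1531, 0.58 at 2115 (against 1.53), 0.67 at 2333 (1.36), 0.74 at 2344 (1.42) and 0.83 at 2479 (1.29). At the 3 brighter probes that rose it was 0.71 (against 0.85), 0.93 (1.26) and 0.98 (1.26). In the deposited table the probe at 2333 gave 0.86.

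LYZ rose at all 4 of its probes. At A_72_P737919, levels in low RFI pigs ran from -3.49 to 0.69 with a median of -1.36, and in high RFI pigs from -2.67 to 4.86 with a median of -0.25. The line difference was 1.5 ± 0.41, 2.83-fold (adjusted p = 0.0094), and the 4 probes ranged from 0.98 to 1.68. The value of 1.68 was that of the dim probe O11856, which gave 0.78 with normexp and 1.01 in the deposited table. Within low RFI pigs the SD was 1.07 and within high RFI pigs 1.90, and 9 high RFI pigs lay above all low RFI pigs.

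CSF1R, the growth factor receptor, rose at its only probe (O6058), and TYROBP, the adaptor, rose at 3 probes. Levels of CSF1R ran from -5.88 to -2.62 in low RFI pigs (median -3.72) and from -4.29 to -1.26 in high RFI pigs (median -2.68). Its difference was 0.94 ± 0.21, 1.91-fold (adjusted p = 0.0020), and it was well above background on 14 low RFI and 21 high RFI arrays. With normexp the CSF1R difference was 0.29, and it was 0.43 in the deposited table. TYROBP ran from -0.20 to 1.14 in low RFI pigs (median 0.43) and from -0.12 to 2.36 in high RFI pigs (median 0.67) at A_72_P650098. The lines shared their lower range, and TYROBP differed by 0.42 ± 0.15 (adjusted p = 0.043), with 0.52 and 0.53 at its other probes. Calls at A_72_P650098 were near the threshold and were kept in 26 of 48 fits that each left out 1 pig, while the other 2 TYROBP probes were called in all 48.

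AIF1 differed by 0.43 to 0.44 at its 3 probes, 1.35- to 1.36-fold (adjusted p = 0.022 to 0.024). At A_72_P394883, low RFI pigs ranged from 0.39 to 2.1 (median 1.15) and high RFI pigs from 0.64 to 2.93 (median 1.46), so most of the ranges were shared and 4 high RFI pigs lay above all low RFI pigs. Of the scavenger receptors, MSR1 (A_72_P114041) ran from -4.82 to -1.57 in low RFI pigs (median -2.66) and from -3.42 to 0.09 in high RFI pigs (median -2.28). The MSR1 difference was 0.59 ± 0.21 (adjusted p = 0.044), and it was called in 26 of the 48 fits without 1 pig. It was 0.26 with normexp and 0.34 in the deposited table. The second MSR1 probe was well above background on 3 arrays.

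MRC1 did not pass the test at either probe. At O1108 the range was -0.46 to 1.72 in low RFI pigs (median 0.69) and 0.15 to 2.18 in high RFI pigs (median 0.85), and the difference was 0.35 ± 0.15 (adjusted p = 0.10). At A_72_P442529 it was 0.15 ± 0.10 (adjusted p = 0.30). CHIT1 ran from -2.80 to -1.01 in low RFI pigs (median -1.79) and from -2.39 to -1.42 in high RFI pigs (median -2.01), with a difference of -0.12 ± 0.09 (adjusted p = 0.42).

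SPP1 had large differences between the lines and a wide scatter between pigs. At A_72_P441454, low RFI pigs ran from -4.85 to 1.89 (median -0.52) and high RFI pigs from -2.89 to 3.98 (median 0.81), and the difference of 1.48 ± 0.56 had an adjusted p of 0.062. Of the 6 probes, 5 gave 1.04 to 1.48, with SDs over pigs of 1.88 to 2.24, and only the probe at 222 passed the test, at 1.32 ± 0.47 (adjusted p = 0.048). That call was kept in 18 of 48 fits without 1 pig, and with normexp the difference was 0.58. The sixth probe, A_72_P125426, named through an EST, was the brightest and stood apart, with an SD of 0.20, a difference of 0.12 ± 0.05 (adjusted p = 0.13) and correlations of 0.05 to 0.12 with the other 5.

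**Figure D2:**
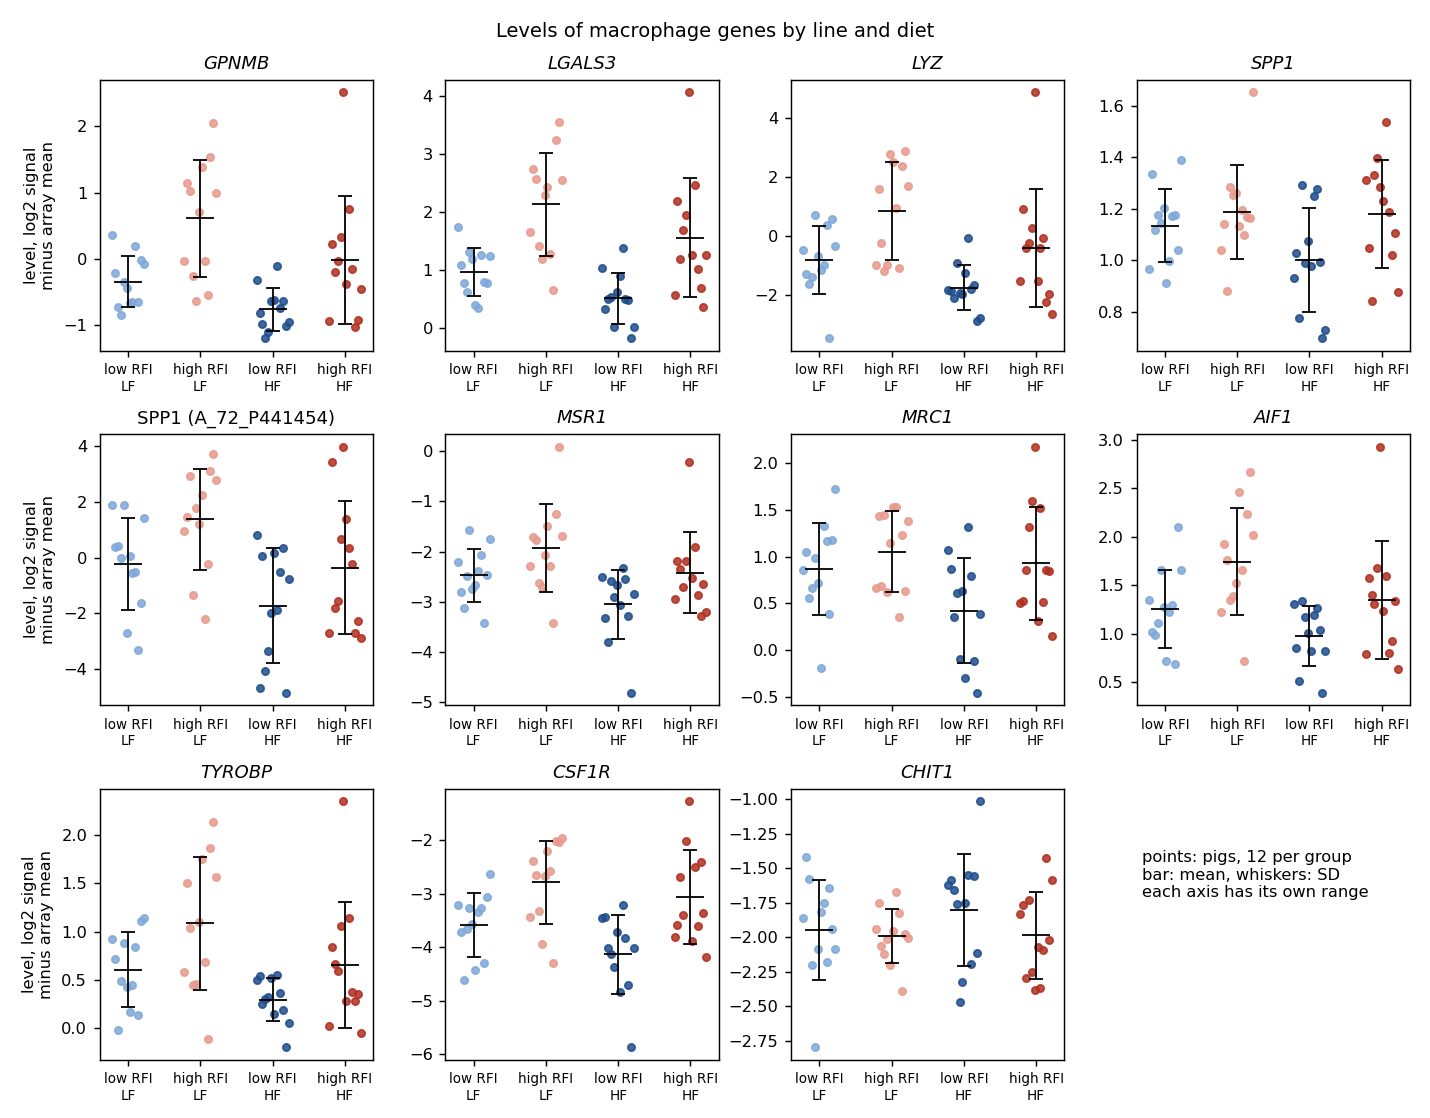
Level of each gene in every pig (log2 signal minus the array mean) by line and diet, with the group mean and SD. Panels show the brightest kept probe of each gene, and for SPP1 also A_72_P441454. In GPNMB, LGALS3 and LYZ the high RFI groups reach above the low RFI groups while the lower ends overlap, and CHIT1 lies in the same range in all groups.

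Within the HF diet, 16 of the 39 probes were higher in high RFI pigs, where 2.36% of all tested probes were. They were 8 of LGALS3, 7 of GPNMB and the CSF1R probe, or 14 of 37 with 5 of GPNMB when the probes at 1523 and 1531 are left out. Within the LF diet 9 were, 8 of LGALS3 and 1 of GPNMB, where 1.13% of all probes were. At the brightest LGALS3 probe the difference was 1.05 ± 0.30 on HF and 1.17 ± 0.30 on LF, and at the brightest LYZ probe it was 1.34 ± 0.58 and 1.66 ± 0.58, which did not pass in either diet (adjusted p = 0.14 and 0.12). Whether the line difference differed between diets was tested as an interaction, and limma called 0 of the 39 probes (0% of all probes), with a smallest adjusted p of 0.999 and 0 probes at an unadjusted p under 0.05, where 4.45% of all probes were. The counts within a diet depended on single pigs. On HF they fell to 2 without HF_RFIpl pig 6 or pig 8, to 4 and 7 without HF_RFIneg pigs 11 and 12, to 8 without HF_RFIneg pig 5 or HF_RFIpl pig 5, and to 9 without HF_RFIpl pig 2. On LF they fell to 2 without LF_RFIpl pig 10 or 11 and to 5 without LF_RFIneg pig 7, and rose to 15 without HF_RFIpl pig 6, which enters through the shared estimate of the spread.

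Between diets, 38 of the 39 probes had lower means on HF than on LF and limma called none of them, where 0.245% of all tested probes were lower and called. At an unadjusted p under 0.05 there were 32 of the 39, against 13.1% of all probes in either direction. Within low RFI pigs limma called 0 (0.0878% of all probes were lower and called), with 6 at an unadjusted p under 0.05 against 11.6% of all probes. Within high RFI pigs it called 0 of the 39 and 0% of all probes, with 19 at an unadjusted p under 0.05 against 5.47% of all probes. The HF minus LF difference of GPNMB ran from -1.18 to -0.53 at the 9 probes that moved together, that of LYZ from -1.26 to -0.77, and that of 5 SPP1 probes from -1.65 to -1.27. For the brightest LYZ probe, the medians were -1.86 and -0.83 in low RFI pigs on HF and LF, and -0.42 and 1.25 in high RFI pigs. These diet values rested on 1 pig more than any other. Without HF_RFIpl pig 6, 7 GPNMB and 3 LYZ probes were lower on HF at an adjusted p under 0.05, beside 0.95% of all probes called in either direction, and without LF_RFIpl pig 5 there was 1 such probe.

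HF_RFIpl pig 6 had the highest level of 35 of the 39 probes. At LYZ it reached 4.86 where the next pig had 2.85, at GPNMB 2.51 against 2.05, and at LGALS3 4.07 against 3.55. It ranked 9 from the top for SPP1 at A_72_P125426 and 45 for CHIT1. Its array was not unusual in brightness, with 65.7% of probes well above background where the median array had 66.8%. LF_RFIpl pigs 10 and 11 were each among the 5 highest pigs for 35 probes, and HF_RFIneg pig 11 was among the 5 lowest for 34. The 3 high pigs were on slides 3, 5 and 6. Without HF_RFIpl pig 6 the line difference was called at 27 of the 39 probes, and the probes of SPP1 and MSR1 and 1 of TYROBP lost their call.

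Pig by pig, the genes rose and fell together within groups. After the mean of each line and diet group was subtracted, 33 of the 45 gene pairs had a positive Pearson correlation at an adjusted p under 0.05 over 48 pigs (two-sided permutation test of 100000 permutations, Benjamini-Hochberg over 45 pairs), and 29 had so by Spearman's rho. For 23 pairs the p was 1e-05, the smallest these permutations can give. GPNMB and LGALS3 had the highest r of the 45 (r = 0.95, rho = 0.91), followed by AIF1 with TYROBP and GPNMB with TYROBP (both r = 0.91). GPNMB and LYZ had r = 0.83 and rho = 0.75, and r = 0.73 without the 2 pigs farthest from the GPNMB median. The permutation p of each of these 4 pairs was the smallest possible, with an adjusted p of 2e-05.

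**Figure D3:**
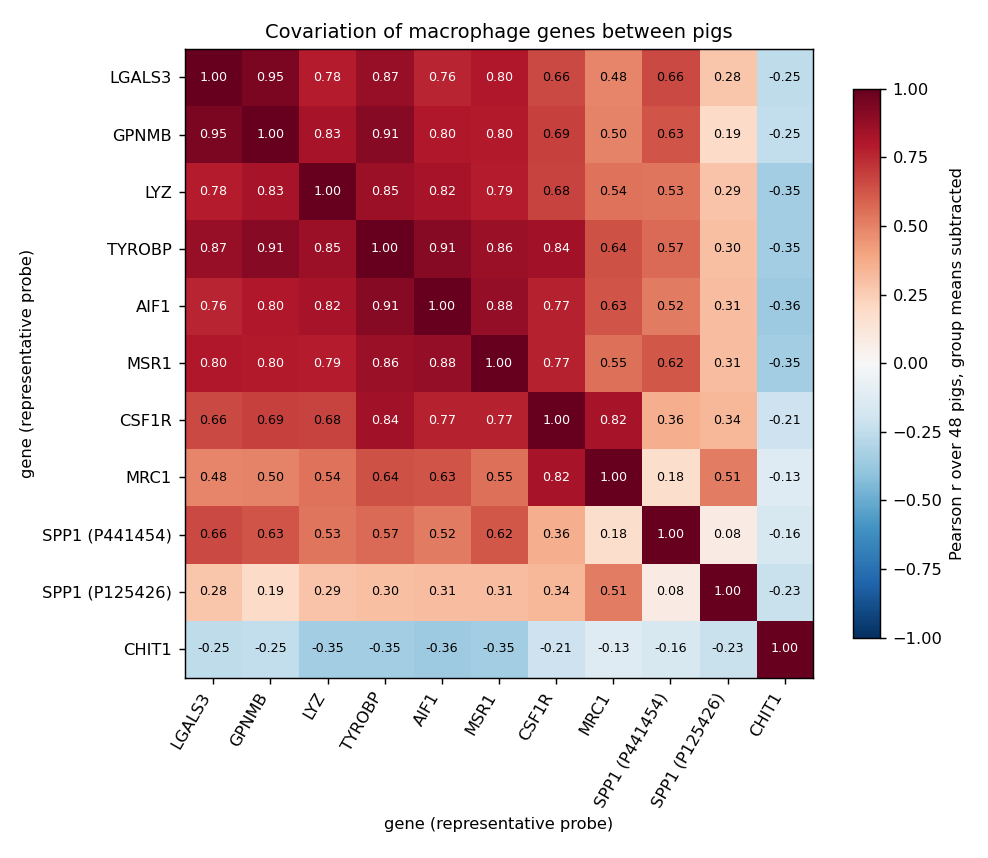
Pearson r between the genes over 48 pigs after subtraction of group means, at the brightest kept probe of each gene and, for SPP1, also at A_72_P441454. LGALS3, GPNMB, LYZ, TYROBP, AIF1 and MSR1 correlate at 0.76 to 0.95 with each other, MRC1 is closest to CSF1R (0.82), and CHIT1 is below 0 with all others.

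MRC1, a receptor, had no probe past the line threshold but varied with the others between pigs. It correlated with CSF1R at 0.82, with GPNMB at 0.50 and with LGALS3 at 0.48. SPP1 at its brightest probe gave 0.19 with GPNMB, but that probe did not follow the other SPP1 probes. At A_72_P441454, chosen after the data were seen because it followed them best, SPP1 gave 0.61 with GPNMB (at A_72_P327013, chosen likewise), 0.66 with LGALS3 and 0.18 with MRC1. With this choice made for every gene, 35 of the 36 pairs without CHIT1 were positive at an adjusted p under 0.05, the pair of SPP1 and MRC1 being the exception (r = 0.18, adjusted p = 0.24).

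The genes also rose and fell together within each line. GPNMB and LYZ had r = 0.56 in the 24 low RFI and r = 0.89 in the 24 high RFI pigs (adjusted permutation p = 0.011 in low RFI pigs), and GPNMB and MSR1 had 0.46 and 0.93. Over all 45 pairs the median r was 0.52 in low RFI and 0.66 in high RFI pigs, and the difference between the lines was not tested. The spread of the levels moved with it, since the SD of GPNMB at A_72_P554296 was 0.41 in low RFI and 0.96 in high RFI pigs. Over pigs scanned on each of the 2 days, the median r was 0.71 and 0.59.

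CHIT1 was negatively correlated with all 9 others, from -0.36 with AIF1 to -0.13 with MRC1, and 4 of these pairs had an adjusted p under 0.05. Without HF_RFIpl pig 6 only the pair with AIF1 did (adjusted p = 0.044). In the low RFI line 0 of the 9 did and 2 were positive, and in the high RFI line 6 did, where all 9 lay between -0.50 and -0.31. Within groups the level of CHIT1 moved with the brightness of the array. Its r with the mean log2 signal of the array was 0.40 (adjusted permutation p = 0.044 over 10 genes), and Spearman's rho of 0.36 had an adjusted p of 0.067, while r of the other 9 genes ranged from -0.11 to 0.28, with MRC1 the highest (rho = 0.37, adjusted p = 0.067). For GPNMB, LGALS3, SPP1, AIF1 and TYROBP, r with brightness was taken at the probe that best followed the others of its gene, not at the brightest. That choice was made after the data were seen, and the -0.11 is that of SPP1 at A_72_P441454. The part of brightness and of probe disagreement in the negative correlations of CHIT1 was not tested.

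**Figure D4:**
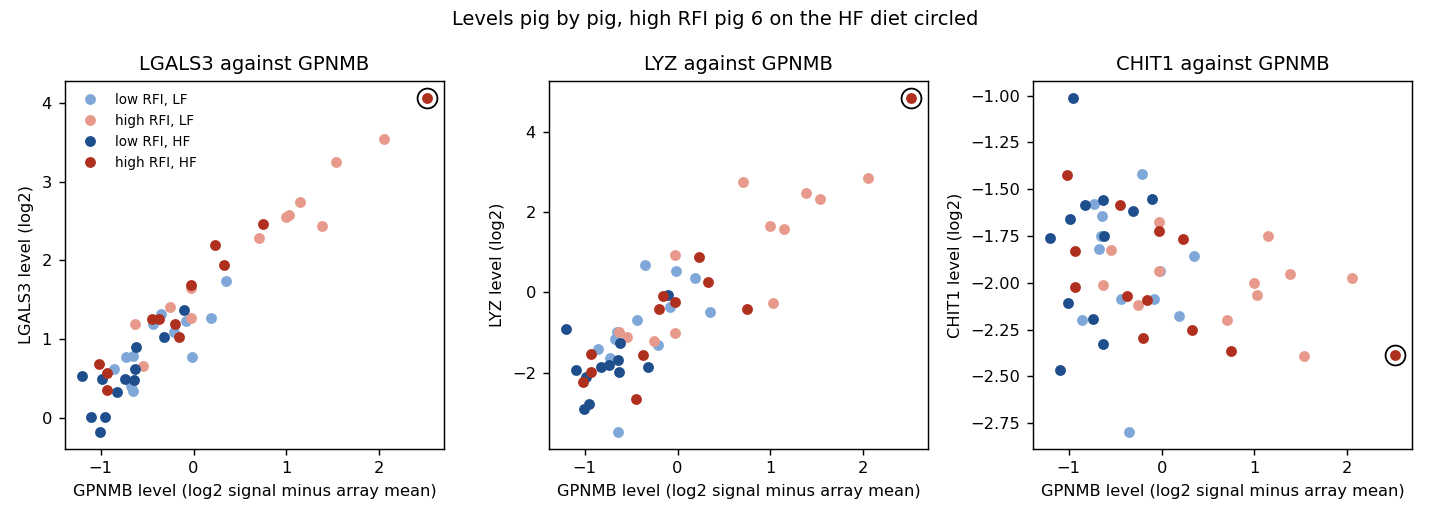
Level of LGALS3, LYZ and CHIT1 against the level of GPNMB in each of the 48 pigs, in log2 signal minus the array mean, coloured by line and diet, with HF_RFIpl pig 6 circled. LGALS3 follows GPNMB closely (r = 0.95 within groups), LYZ more loosely (0.83), and CHIT1 does not rise with it (-0.25).

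Ranked over 9304 gene symbols, the genes most like GPNMB at A_72_P554296 were LGALS3 (r = 0.95), TYROBP (0.91), CYBA (0.91), GP91-PHOX (0.90), RBM47 (0.90), DNASE2 (0.90), LIPA (0.89) and CD1.1 (0.89). CYBA and GP91-PHOX, the latter also known as CYBB, form the core of the phagocyte oxidase, and DNASE2 and LIPA are the lysosomal enzymes for DNA and cholesterol esters. The genes most like LYZ were PTPN6, a phosphatase of blood cells (0.89), GMFG (0.89), BLNK (0.88), GP91-PHOX (0.88) and LAPTM5, a lysosomal membrane protein of blood cells (0.88). These correlations are over 48 pigs with group means removed, and all points share the array and its scaling.

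Other macrophage genes were read from lists that were chosen with earlier results known. Their probes passed the same filter on dim probes, and detection by line is not given for them. Of the list genes named below as rising, TREM2, IL10, FCGR1A and CD79B were dim, with mean levels in low RFI pigs of -3.23, -3.78, -3.19 and -5.13. Of those named as not passing, CD68, LYVE1, STAB1, MS4A1 and MYF5 were dim too, at -4.15, -3.48, -4.15, -4.61 and -4.61. Of 14 other macrophage genes with a tested probe, 8 (57.1%) rose at their brightest probe and none fell, where 6.57% of all tested probes rose, and the median line difference was 0.43 where all tested probes had -0.03. Among them were VSIG4, a complement receptor (0.77 ± 0.19, adjusted p = 0.0038), CTSS, a lysosomal protease (0.75 ± 0.17, adjusted p = 0.0023), C1QB, a chain of complement C1q (0.62 ± 0.16, adjusted p = 0.0069), and FCER1G, an adaptor of Fc receptors (0.58 ± 0.16, adjusted p = 0.0089). CD68 (0.40 ± 0.20, adjusted p = 0.17) and CD163 (0.47 ± 0.19, adjusted p = 0.087) did not pass at their brightest probe, while 1 of the 7 CD163 probes rose. The mean level of the 14 genes ran from -1.17 to 0.48 in low RFI pigs and from -0.71 to 1.46 in high RFI pigs, with HF_RFIpl pig 6 the highest.

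Of 17 genes of lipid-laden and lysosomal macrophages, 6 (35.3%) rose and none fell at the brightest probe, against 6.57% of all tested probes, and the median difference was 0.11. They included TREM2, the lipid-sensing receptor that signals through TYROBP (0.90 ± 0.19, adjusted p = 0.0010), ACP5, an acid phosphatase (0.63 ± 0.18, adjusted p = 0.013), and LIPA (0.56 ± 0.13, adjusted p = 0.0018). Of the 75 probes of the list 25 were higher and 1, of CTSB, was lower, while the other 6 CTSB probes rose. At the brightest probe, CD36, LPL, PLIN2 and FABP5 had differences of -0.03, 0.01, -0.02 and 0.10 and did not pass. Nor did APOE, CD63, MMP9 and MITF (-0.06, -0.03, -0.06 and 0.05) or NPC2, CD44 and CD9 (0.11, 0.12 and 0.14). For CD9, however, 4 of its 9 probes rose and none fell. Of 9 genes of tissue-resident macrophages 2 (22.2%) rose at the brightest probe, the cytokine IL10 (0.90 ± 0.22, adjusted p = 0.0031) and the chemokine CCL2 (0.53 ± 0.16, adjusted p = 0.021). LYVE1, FOLR2, STAB1 and MAF did not pass, with differences of -0.25, -0.08, -0.24 and -0.10.

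Of 16 ligands and partners of the member receptors, 3 (18.8%) rose and 1 fell at the brightest probe, against 6.57% and 9.85% of all tested probes. FCGR1A (1.06 ± 0.28, adjusted p = 0.0066) and FCGR3A (0.63 ± 0.17, adjusted p = 0.0079) are Fc receptors, and SYK, the kinase that TYROBP recruits, differed by 0.62 ± 0.14 (adjusted p = 0.0017). IL34, a ligand of CSF1R, did not pass (0.18 ± 0.10, adjusted p = 0.23), and CD44 and ITGAV, receptors for SPP1, gave 0.12 and -0.11, also short of the threshold. SIRPA fell by 0.14 ± 0.05 at its brightest probe (adjusted p = 0.033), while 2 of its other probes rose, so its probes disagreed. For FCGR2B 4 of 5 probes rose and the brightest gave 0.02 ± 0.05.

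**Figure D5:**
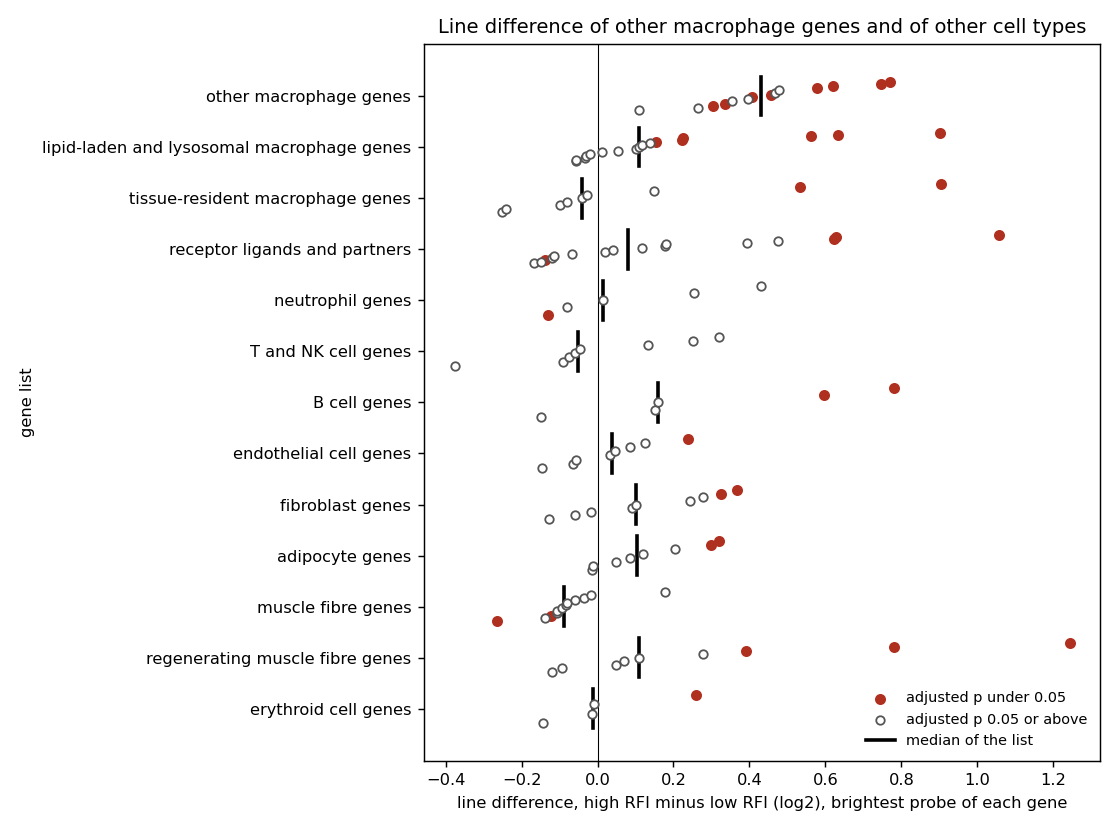
Line difference (log2) of the brightest tested probe of each gene in 13 lists, with the median of each list as a bar. Filled points had an adjusted p under 0.05. The other macrophage genes lie to the right of 0 with a median of 0.43, while the medians of the other lists lie between -0.09 and 0.16.

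Lists for other cell types are given with the same counts at the brightest probe, to be read against 6.57% of all tested probes higher and 9.85% lower, and the part of any of these cells in the line difference was not tested. None of the 8 T and NK cell genes passed, with mean levels of the list from -2.97 to -1.11 in low RFI pigs and from -2.87 to -1.24 in high RFI pigs. Of 5 neutrophil genes, only ELANE passed, falling by 0.13. Of 5 B cell genes, CD79B (0.78 ± 0.21, at a dim probe) and BLNK (0.60 ± 0.15) rose, while MS4A1 gave 0.15 and did not pass. Of 8 endothelial genes TEK rose (0.24 ± 0.09), of 9 fibroblast genes COL1A1 (0.37 ± 0.11) and COL1A2 (0.32 ± 0.10) rose, and of 8 adipocyte genes FABP4 (0.32 ± 0.11) and LIPE (0.30 ± 0.10) rose. Of 4 erythroid genes SLC4A1 rose (0.26 ± 0.09). The markers ADIPOQ (0.20 ± 0.27) and PLIN1 (0.12 ± 0.26) did not pass.

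Of 78 probes of 12 muscle fibre genes 17 were lower in high RFI pigs and none was higher, where 9.85% of all tested probes were lower and 6.57% were higher. At the brightest probe 2 of the 12 genes were lower, TTN, the giant elastic protein titin (-0.26 ± 0.04, adjusted p = 1.4e-05), and MYH2, a fast myosin (-0.12 ± 0.04, adjusted p = 0.026). Only 1 of the 2 TTN probes and 2 of the 5 MYH2 probes were lower. MYH4, another fast myosin, did not pass at its brightest probe (-0.11 ± 0.04, adjusted p = 0.083), while 5 of its 10 probes did, at most by -0.25 ± 0.05. The other genes, among them ACTA1, MYH1, MYH7, CKM and TNNT3, did not pass at the brightest probe, and MB gave 0.18. Of the probes of CKM 6 of 11 were lower, and of those of TNNT3 3 of 5. Of 9 genes of regenerating fibres 3 rose, MYH3, the embryonic myosin (1.24 ± 0.34, adjusted p = 0.0091), CHRNA1, the acetylcholine receptor subunit (0.78 ± 0.20, adjusted p = 0.0054), and MYOD1 (0.39 ± 0.12, adjusted p = 0.022). MYH3 also correlated with GPNMB at r = 0.69 over 48 pigs within groups, and CHRNA1 at 0.55, but MYOD1 only at 0.20. Of the others, NCAM1, CHRNG and MYOG were positively and PAX7 and MYF5 negatively correlated with GPNMB, and TMEM8C hardly at all. MYOG (0.05 ± 0.05), PAX7 (-0.12 ± 0.06) and MYF5 (0.28 ± 0.20) did not pass. The HF minus LF difference of MYH3 was -1.02, which limma did not call (adjusted p = 0.15).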

How the data were processed

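RNA of 48 longissimus samples was labelled with Cy3 and each hybridised to its own array. Per the file headers, the deposited intensity files came from Feature Extraction 10.7.3.1, which subtracts background and gives a processed signal. The authors also deposited a table of log2 values for 34472 probes, made after spot filtering, which was used as an alternative. The intensity was taken as log2, flagged outlier spots were left out (169 missing values), and each array was centred on its mean over the 42125 probes kept, where the study's methods centre on the mean of a smaller probe set merged over several experiments. Control spots were left out. Probe names are those of the array files, and other symbols were matched through the RefSeq gene table of Sscrofa11.1. With limma 3.58.1 in R 4.3.3, 4 group means were fitted to all 48 pigs, contrasts were moderated, and p-values were Benjamini-Hochberg adjusted over all tested probes at 0.05. The fit was tested on simulated data, where 78% of differences of 0.5 and 98% of differences of 1 were recovered in the line contrast with 42125 probes. The changed probes were drawn at random and varied independently, so these shares need not hold for the widely scattered probes of SPP1 or LYZ. Correlations between genes used the brightest kept probe of each gene unless stated. Those with array brightness used the probe that best followed the others of its gene. The genes most alike were the 8 symbols with the highest r to GPNMB and the 5 to LYZ. Of each list, at most 4 genes with the largest called line difference were named, with values at their brightest probe unless stated, and other list genes named beside them were chosen after their values were seen. The members and lists were chosen with earlier results of these data known. Labels give no litter or extraction batch, so p-values measure the spread between these pigs, and the number of arrays limits the precision. Alternatives were scaling on the upper quartile, quantile normalization, normexp, other filters on dim probes, outlier spots kept, a slide block, the deposited table and an unmoderated variance analysis. Slide and scan day were read from the files. Python 3.11.15 with scipy 1.17.1 did the rest. The value of 1 gene of the lists is not reported here.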

Additional observations from a re-analysis of the deposited data

How the results depend on the processing

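The line difference was called at 23 to 30 of the 39 probes (23 without the filter on dim probes, 24 of the 32 in the deposited table, 25 of the 33 well above background on at least 36 arrays) under every alternative tried, no probe reversed, and leaving out each pig in turn gave 27 to 31. The 39 include the GPNMB probes at 1523 and 1531, whose keeping had a difference built in. Without that pair the fit reported called 28 of 37, and the alternatives were not counted again. The 33 probes do not hold that pair. Calls lost their place mainly without the filter on dim probes, where 7 probes of those called in the fit reported no longer passed; a slide block ended 1 call, the methods' variance analysis without moderation 3, quantile normalization 2, normexp 1, the table of deposited values likewise 1, and the cause was not tested. On HF the 16 calls became 8 with normexp, 2 without the filter on dim probes, 9 in the deposited table and 2 without HF_RFIpl pig 6. On LF the 9 calls became 3 without the filter and 15 without that pig. The diet difference had 0 calls except 10 without that pig. Of 402 probes of the gene lists 109 were called in either direction, among them 17 lower ones of muscle fibre genes. Of all tested probes 6.57% were higher and 9.85% were lower. Without the filter 60 of the list probes were called, and the share over all probes is not given for that fit. Positive correlations past the threshold numbered 28 (within scan day 1) to 36 of 45 pairs under the alternatives and within lines and scan days. In the deposited table, which lacks the CHIT1 probe, they numbered 29 of 36. The median r over all 45 pairs was 0.56 without the 2 pigs farthest from the median and 0.56 without HF_RFIpl pig 6. Leaving out HF_RFIpl pig 6, leaving out each pig, and the other choice of probe for each gene were added after the data were seen. Dim probes limit the folds of GPNMB, CSF1R, MSR1, SPP1 and the LYZ probe O11856, and may limit those of the dim list genes. No paired analysis was possible because the labels carry the same replicate tag for every sample.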
